A study of Mus musculus with 8 samples.

Results

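Complement genes encode the secreted proteases, thioester proteins and inhibitors of an innate defence cascade. The 9 genes described here, *C1ra*, *C1s1*, *Serping1*, *C4a*, *C4b*, *C2*, *C3*, *Cfb* and *Cfd*, were taken by name from the 54532 genes of the deposited count table. They were selected on their levels by tissue and diet and on their KO to WT ratios in these same libraries. Both are therefore given as a description, with no test.

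The 8 libraries hold RNAseq of FACS-sorted GFP+ (mG+) cells from mice aged 8 months. WT is Tie2e-cre; TERT+/+; mTmG, and EC-*Tert*-KO (KO) is Tie2e-cre; TERTfl/fl; mTmG, so both genotypes carry Cre and the reporter that turns from membrane Tomato to membrane GFP where Cre has acted. All mice were females. The 4 pairs were SAT (inguinal fat) on HFD, and SAT, VAT (gonadal fat) and gastrocnemius muscle on chow, with 1 library per genotype in each pair. The paper calls *Tie2e* specific to EC, but Tie2 elements are also known to be active in part of the blood lineage. Whether several mice were pooled in a library is not given in the sources used here.

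Totals ran from 6214269 to 18855772 counts, and 16034 to 24688 genes had at least 1 count. *Tert* counts in WT and KO were 114 and 0 in HFD SAT, 70 and 11 in chow SAT, and 24 and 7 in muscle. In VAT they were 3 and 9, against the labels, so that sample is called the library labelled KO, and any direction that counts the VAT pair rests on its label. Summed CPM of 10 endothelial markers ran from 272 to 1905, with none at 0 in any library. Markers of 10 macrophage genes summed to 360 to 12543 CPM, those of 8 neutrophil genes to 58.7 to 22543 CPM and those of 12 stromal (fibroblast) genes to 873 to 3696 CPM. Those of 6 B cell genes summed to 653 to 4190 CPM and those of 6 T cell genes to 133 to 2407 CPM. The sorted libraries thus held RNA of other cell types, and whether the mG+ cells themselves made it was not tested. In the SAT HFD library labelled WT, 1 noncoding gene, *Gm26917*, took 9.72% of all counts. The chow SAT WT library had 0.0256% of its counts on *Malat1*, a nuclear noncoding RNA, against 0.204% to 0.602% in the other 7. The ratios of that pair rest on this library, and its part in them was not tested.

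The cascade starts in 3 ways. In the classical pathway, C1q bound to antibody or debris activates the proteases C1r and C1s, C1s cleaves C4 and C2 to build a C3 convertase, and the C1 inhibitor encoded by *Serping1* blocks C1r and C1s. In the alternative pathway factor D, the *Cfd* product, cleaves factor B bound to C3b. Liver is the main source of the plasma proteins, while fibroblasts, macrophages and EC also make some of them, and adipocytes are a major source of factor D (adipsin).

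The levels differed widely between members. CPM is counts per 1000000 of the TMM-scaled library, and levels of different genes are compared only as CPM per kb of exon. Over the 8 libraries *C3* averaged 91.8 CPM per kb, *C4b* 51.3, *Serping1* 37.8, *C1s1* 16.3 and *C1ra* 10.2. The other 4 members lay far lower. *Cfd* averaged 1.65 CPM per kb, *C4a* 0.563, *C2* 0.551 and *Cfb* 0.383. A count of 0 allows up to 3 counts, which is 0.181 to 0.451 CPM depending on the library.

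Ratios of KO to WT are log2 values of CPM with a prior count of 0.5, and their 95% intervals (exact conditional binomial) cover counting error only, not the spread between mice. A gene was called past 2-fold where its whole interval lay past 2-fold, among genes that averaged 10 counts or more in the pair. In HFD SAT 7 of the 9 members reached that mean and 1, *Cfb*, was higher past 2-fold, beside 12.7% of all genes higher and 11.1% lower. In chow SAT 7 members reached it and 1, *C1s1*, was higher, beside 19% higher and 11.7% lower of all genes. In VAT all 9 reached it and none passed, beside 2.4% higher and 2.09% lower. In muscle 8 reached it and 3, *C1ra*, *C1s1* and *C2*, were higher, beside 2.75% higher and 2.05% lower. No member that reached the mean was lower past 2-fold in any pair. Because these ratios chose the members, nothing is read from these counts.

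**Figure D1:**
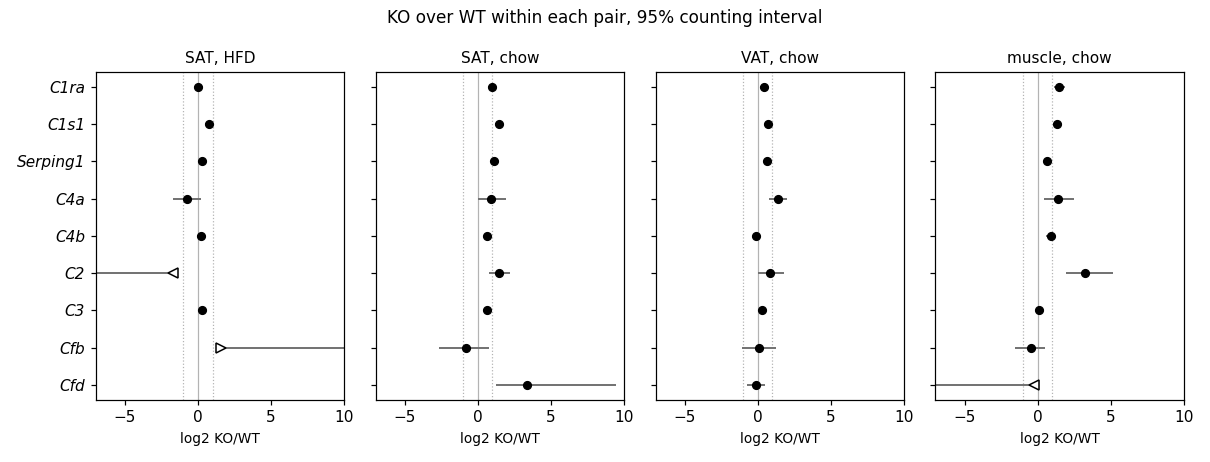
Log2 KO/WT ratio (x axis) of each member (y axis) in the 4 pairs; points are ratios, lines 95% counting intervals, dotted lines 2-fold, and open triangles the finite end of an interval where one library had 0 counts. *C1s1*, *Serping1* and *C3* have intervals above 0 in all 4 pairs, while *C2* lies below 0 in HFD SAT and above 0 in the other 3.

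*C1ra* and *C1s1*, the genes of the C1 proteases, lie near each other on chromosome 6 (GRCm38; chr6:124512405-124523443 and chr6:124530345-124542359). *C1s1* had 258 counts in WT and 820 in KO in HFD SAT, 467 and 1255 in chow SAT, 509 and 1283 in VAT, and 228 and 476 in muscle. As CPM these were 38.8 and 64.9, 28.2 and 75.6, 57.0 and 94.5, and 13.8 and 34.5, so the library labelled KO was the higher one each time. The ratio was 1.67-fold in HFD SAT (log2 0.74, interval 0.54 to 0.95), 2.68-fold in chow SAT (1.42, 1.27 to 1.58), 1.66-fold in VAT (0.73, 0.58 to 0.88) and 2.49-fold in muscle (1.32, 1.09 to 1.55).

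*C1ra* had 220 and 421 counts in HFD SAT, which is 33.1 CPM in WT and 33.3 in KO. It had 361 and 712 counts in chow SAT (21.8 and 42.9 CPM), 307 and 639 in VAT (34.4 and 47.1 CPM) and 129 and 304 in muscle (7.82 and 22.0 CPM). *C1ra* thus differed between the libraries of a pair beyond counting error on chow, while in HFD SAT the log2 ratio was 0.01 (-0.23 to 0.25) and turned to -0.00094 with DESeq2 size factors. The ratios on chow were 0.97 (0.79 to 1.16) in SAT, 0.45 (0.26 to 0.65) in VAT and 1.49 (1.19 to 1.80) in muscle. Per kb, *C1s1* was 1.12 to 1.91 times *C1ra* within a library. Both have close copies nearby, and 48.0% of the 50-base windows of *C1ra* occur unchanged in *C1rb* and 24.3% of those of *C1s1* in *C1s2*. *C1rb* had 0 to 12 counts and *C1s2* 0 to 19, so reads that match both may be missing from these values as well, which was not tested. On the opposite strand *Gm16567* shares 18.4% of the *C1s1* exon bases.

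*Serping1*, the inhibitor of these proteases, lies at chr2:84765387-84775444. HFD SAT gave 632 counts in WT and 1463 in KO (95.1 and 115.8 CPM), chow SAT 744 and 1584 (45.0 and 95.5), VAT 796 and 1913 (89.1 and 140.9), and muscle 780 and 1021 (47.3 and 74.0). The library labelled KO was again higher in each pair, by log2 0.28 (0.15 to 0.42) in HFD SAT, 1.08 (0.96 to 1.21) in chow SAT, 0.66 (0.54 to 0.78) in VAT and 0.65 (0.51 to 0.78) in muscle. Per kb the inhibitor exceeded *C1s1* by 1.70 to 4.60 times, and this excess was smaller in the library labelled KO in all 4 pairs, by little in VAT (2.10 and 2.01 times).

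Proteases and inhibitor summed higher in the library labelled KO, and in the chow pairs fibroblast genes did so as well. The summed CPM of *C1ra*, *C1s1* and *Serping1* was 167 in WT and 214 in KO in HFD SAT, 95 and 214 in chow SAT, 180 and 283 in VAT, and 68.9 and 131 in muscle. The 12 stromal markers summed to 2378 and 2430 CPM, 939 and 3696, 1247 and 2786, and 873 and 1634 in the same pairs. Of these 12 markers 6 were higher in the library labelled KO in HFD SAT, 11 in chow SAT, 12 in VAT and 12 in muscle, and none was at 0 in any library. The 8 mural markers (pericytes and smooth muscle) were also higher in the libraries labelled KO on chow, by log2 1.77 in SAT, 2.0 in VAT and 1.21 in muscle. Immune lists went the other way in chow SAT, at log2 -1.23 (macrophage), -1.80 (neutrophil), -1.28 (T cell) and -0.73 (B cell), with endothelial markers at 0.28. In VAT these 4 immune lists were at -0.07, -0.30, 0.48 and 0.70, and in muscle at -0.03, 0.25, -0.59 and 0.01. In HFD SAT they were at -0.84, 0.67, 0.18 and -0.02, with mural markers at -0.10. The part of these lists in the ratios was not tested.

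Set against the stromal sum, the sum of these 3 genes did not move one way. It was 7.02 CPM per 100 CPM of stromal markers in WT and 8.81 in KO in HFD SAT, 10.1 and 5.79 in chow SAT, 14.5 and 10.1 in VAT, and 7.89 and 7.99 in muscle. Relative to this stromal sum it was thus lower in KO in chow SAT and in the VAT library labelled KO. It was higher in KO in HFD SAT. The markers in the stromal sum did not move alike. In chow SAT *Col6a3* had 242 and 3849 counts and *Col1a1* 1609 and 10967, while *Pi16* had 836 and 1409 and *Ly6a* 2448 and 1805. In VAT these were 533 and 4078, 906 and 4751, 781 and 1271, and 891 and 1971. The direction against a single fibroblast gene, as *Ly6a* in chow SAT, can thus differ from that against the sum. Fewer cells of a type and less RNA per cell cannot be told apart in bulk samples. The part of stromal cells in these ratios was not tested.

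**Figure D2:**
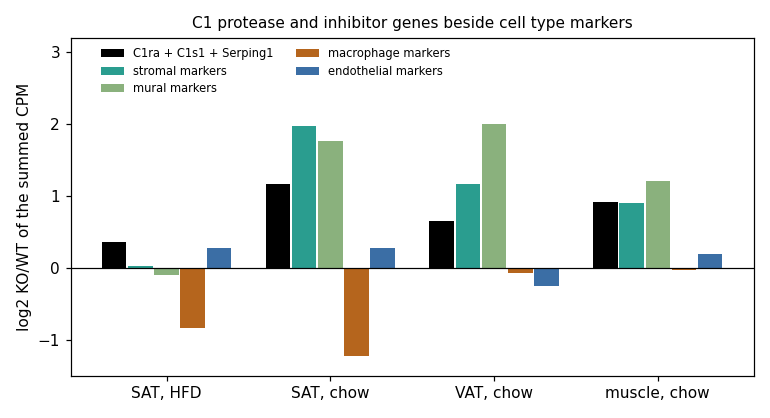
Log2 KO/WT (y axis) of the summed CPM of *C1ra*, *C1s1* and *Serping1* (black) and of 4 marker lists in each pair (x axis); each bar compares 1 library with 1 library. In chow SAT the black bar is at 1.17 and the stromal bar at 1.98, and in muscle they are at 0.92 and 0.90.

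*C4b* encodes C4, which forms the classical convertase with C2, and *C4a* is its close copy, known as sex-limited protein and annotated as a processed transcript in GENCODE M21. They lie at chr17:34728380-34743882 and chr17:34809092-34823464. Over the longest transcripts, 35.2% of the 50-base windows of *C4b* occur unchanged in *C4a* transcripts, and 16.5% of the 100-base windows do. The stretches shown are 60 bases of a *C4b* coding exon and their *C4a* counterpart of equal length. Among the windows compared, which had to be flanked on both sides by bases identical in *C4a*, this one held the most differences. Both lie in exon 21 of 41 on the minus strand, at chr17:34735430-34735489 and chr17:34816086-34816145. Capitals mark the 13 bases that differ.
C4b: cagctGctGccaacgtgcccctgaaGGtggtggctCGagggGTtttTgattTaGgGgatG
C4a: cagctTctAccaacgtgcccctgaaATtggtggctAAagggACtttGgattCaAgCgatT
Reads from identical windows may have been split between the 2 genes or left out, so the *C4a* values are uncertain.

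Among the members detected in every library, *C4b* had the widest range. It had 9417 and 13348 counts in VAT (1054 CPM for WT, 983 for the library labelled KO), against 945 and 1469 in chow SAT (57.1 and 88.5 CPM), 346 and 748 in HFD SAT (52.1 and 59.2) and 239 and 372 in muscle (14.5 and 27.0). The VAT libraries did not overlap with any other, and the muscle libraries lay below all others. The VAT WT library exceeded that of chow SAT 18.4-fold and that of muscle 72.6-fold, and the VAT library labelled KO exceeded the KO libraries 11.1-fold and 36.4-fold. Within the pairs the log2 ratio of *C4b* was 0.19 (-0.00018 to 0.37) in HFD SAT, 0.63 (0.51 to 0.75) in chow SAT, -0.10 (-0.14 to -0.06) in VAT and 0.89 (0.66 to 1.14) in muscle.

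*C4a* had 23 and 26 counts in HFD SAT, 17 and 33 in chow SAT, 40 and 157 in VAT, and 15 and 34 in muscle. It too was highest in VAT, at 4.48 (WT) and 11.6 CPM (library labelled KO), against 0.909 to 3.46 CPM in the other 6. The log2 ratio was -0.74 (-1.62 to 0.13) in HFD SAT, 0.93 (0.07 to 1.89) in chow SAT, 1.36 (0.86 to 1.91) in VAT and 1.40 (0.52 to 2.42) in muscle. In VAT the 2 copies thus went apart. *C4a* made up 0.423% of the counts of both genes in WT there (exact binomial interval 0.302 to 0.576) and 1.16% (0.989 to 1.36) in the library labelled KO, and 1.77% to 8.37% in the other libraries.

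*C2* (chr17:34862604-34898265) encodes the protease that joins C4b in the convertase. HFD SAT gave 8 counts in WT and 0 in KO, chow SAT 30 and 82, VAT 18 and 50, and muscle 5 and 43. In HFD SAT it was at least 5.07-fold lower in KO with 3 counts taken as the floor, while the 95% counting interval reached up to log2 -1.70. In the chow pairs the library labelled KO was higher, by log2 1.43 (0.83 to 2.10) in SAT, 0.86 (0.07 to 1.74) in VAT and 3.21 (2.03 to 5.06) in muscle. On the opposite strand *Zbtb12* shares 4.16% of the *C2* exon bases.

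*C3*, the central protein on which all 3 pathways converge, lies at chr17:57203970-57228136. It had 1579 and 3648 counts in HFD SAT (238 CPM in WT and 289 in KO), 2946 and 4602 in chow SAT (178 and 277), 3571 and 6498 in VAT (400 and 479), and 15346 and 13622 in muscle (930 and 987). Both muscle libraries stood above the other 6. Muscle exceeded chow SAT 5.22-fold in WT and 3.56-fold in KO, and exceeded VAT 2.33-fold in WT and 2.06-fold between the libraries labelled KO. *C3* was higher in the library labelled KO in each pair, but by little outside chow SAT. The log2 ratio was 0.28 (0.20 to 0.37) in HFD SAT, 0.64 (0.57 to 0.71) in chow SAT, 0.26 (0.20 to 0.32) in VAT and 0.09 (0.05 to 0.12) in muscle. The muscle ratio moved with the scaling, to 0.034 with the upper quartile and 0.255 with library totals.

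Only *C3* among the members was highest in muscle in both genotypes, and neutrophil markers were highest there too. Their sum was 18962 CPM in WT and 22543 in KO in muscle, 469 and 380 in VAT, and 58.7 to 235 in SAT. Endothelial markers were high in muscle as well, at 1675 and 1905 CPM, and in VAT, at 1693 and 1425 CPM, against 272 to 578 CPM in SAT. Macrophage markers were highest in VAT, at 12543 and 11946 CPM, where *C4b* was highest, and next in muscle, at 5278 and 5184 CPM, where *C4b* was lowest. The muscle sum was mostly *Lyz2*, at 78491 and 67477 counts. The next of that list, *Csf1r*, had 4202 and 1800 counts in muscle and 3911 and 1823 in chow SAT. The place of muscle above chow SAT thus rests on *Lyz2*. Of 6 mesothelial markers, *Wt1* had 61 and 89 counts in VAT and 0 to 3 elsewhere, and *Upk3b* 34 and 54 and 0 to 2, while the sum of the list was highest in chow SAT (78.5 CPM in each library, mostly *Krt19*). The part of these cells in the levels of *C3* and *C4b* was not tested. Hepatocyte markers summed to at most 3.63 CPM in any library.

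The proteases of the alternative pathway were scarce. *Cfb* (chr17:34856374-34862518), factor B, had 0 counts in WT and 23 in KO in HFD SAT, 11 and 6 in chow SAT, 13 and 21 in VAT, and 27 and 16 in muscle. In HFD SAT it was at least 4.03-fold higher in KO with 3 counts taken as the floor, while the 95% counting interval reached down to log2 1.60. In the other pairs the interval of the ratio spanned 0, with log2 -0.82 (-2.60 to 0.68) in chow SAT, 0.09 (-0.98 to 1.21) in VAT and -0.48 (-1.49 to 0.45) in muscle. The read-through gene *Gm20547* covers 79.5% of the exon bases of *Cfb* and 42.8% of those of *C2* on the same strand, and had 0 counts in all 8 libraries. Reads that fall in more than 1 gene may have gone uncounted, which was not tested, so the levels of *Cfb* and *C2* may be too low.

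*Cfd* (chr10:79890853-79892655), factor D or adipsin, is abundant in adipocytes. It had 50 and 70 counts in VAT (5.60 and 5.16 CPM), 1 and 16 in chow SAT, 7 and 0 in muscle, and none in HFD SAT. VAT stood above all other libraries. Its ratio in VAT was log2 -0.12 (-0.66 to 0.44), and in chow SAT 3.35 (1.31 to 9.39) from 17 counts in all. Of the adipocyte markers, *Adipoq* had 20 and 29 counts in VAT and 0 to 6 elsewhere, *Plin1* had 13 and 46 in VAT and 0 to 5 elsewhere, *Cidec* 45 and 31 and 0 to 4, and *Lep* was at 0 in 6 libraries. *Fabp4*, *Lipe* and *Pnpla2*, which other cells also express, had 5032, 900 and 2663 counts in muscle WT, above the 3684, 533 and 1215 in VAT WT, and the sum of all 8 markers was 620 and 970 CPM in VAT and 172 to 554 CPM elsewhere. Their part in the level of *Cfd* was not tested.

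**Figure D3:**
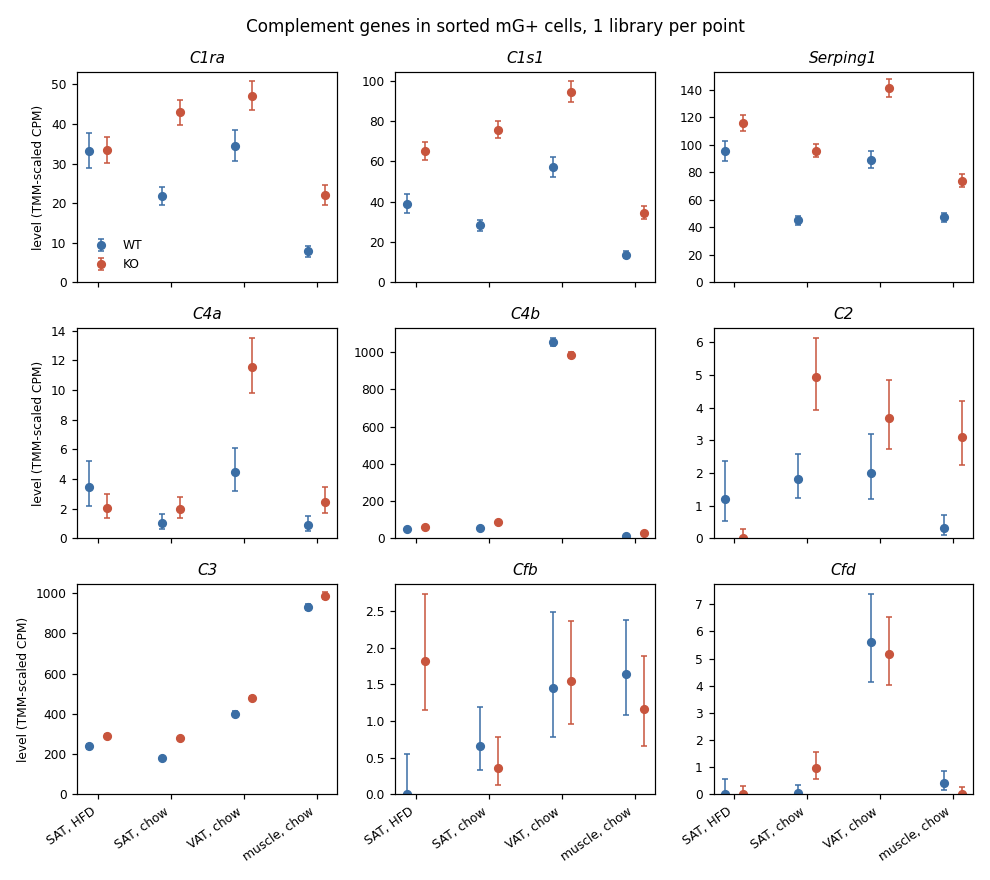
Level of each member (y axis, TMM-scaled CPM, one scale per panel) by tissue and diet (x axis) in WT (blue) and KO (red); each point is 1 library and bars are exact 95% Poisson intervals of its count. *C4b*, *C4a* and *Cfd* are highest in both VAT libraries, and *C3* in both muscle libraries.

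In the order of tissues, *C4a*, *C4b* and *Cfd* had both VAT libraries above the other 6, which 15.2% of the 16971 genes averaging 10 counts or more had. *C3* had both muscle libraries above the other 6, as did 8.1% of these genes. Levels by tissue chose the members, so the shares are given for scale. For *C1ra* the mean CPM ran from VAT (40.7) over HFD SAT (33.2) and chow SAT (32.4) to muscle (14.9), and for *C1s1* from VAT (75.8) over chow SAT (51.9) and HFD SAT (51.9) to muscle (24.2). Neighbours in these orders overlapped, except VAT and HFD SAT for *C1ra* and HFD SAT and muscle for *C1s1*. Neither VAT nor muscle stood apart from all others for these genes. *C1ra* in chow SAT KO (42.9 CPM) lay within the VAT values (34.4 and 47.1). *C1s1* in chow SAT WT (28.2 CPM) lay within the muscle values (13.8 and 34.5). For *Serping1* all neighbours overlapped, with means of 115, 105, 70.2 and 60.6 CPM in VAT, HFD SAT, chow SAT and muscle.

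The diet ratios of the C1 proteases pointed in opposite ways in WT and KO. HFD over chow in SAT was 1.52-fold in WT and 0.777-fold in KO for *C1ra*, 1.37-fold and 0.858-fold for *C1s1*, and 2.11-fold and 1.21-fold for *Serping1*, the one that was higher on HFD in both. *C4b* was lower on HFD in KO (0.669-fold), with an interval that spanned 0 in WT (log2 -0.13, -0.32 to 0.05), and *C3* was higher in WT (1.33-fold), with an interval that spanned 0 in KO (log2 0.06, -0.0048 to 0.12). Each value compares 1 library with 1 library, and the SAT libraries are those used for the genotype ratios.

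Across the 4 pairs, *C1ra*, *C1s1*, *Serping1* and *C3* were higher in the library labelled KO every time, 4 of the 6 members averaging 10 counts or more in every pair. *C1ra* loses this place with DESeq2 size factors, as given above. The same held for 5.17% of all genes with that mean, 703 of 13598. Intervals lay above 0 in all 4 pairs for *C1s1*, *Serping1* and *C3*, as for 1% of these genes. The muscle ratio of *C3* moved with the scaling, as given above. KO to WT ratios chose the members, so both shares are given for scale and nothing is read from them. With the SAT HFD pair left out, *C4a* and *C2* joined and the count was 6. Without VAT, whose *Tert* counts go against the labels, *C4b* joined and it was 5. Agreement over fewer pairs is easier to reach, and *C2* averaged under 10 counts in HFD SAT. The share of all genes was not computed with a pair left out, so these rises are not read as stronger agreement.

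For the sequence before the start sites, RefSeq windows (GRCm38.p6) were matched for 4 of the 9 members, *C1ra*, *C1s1*, *C3* and *Cfd*. The 250 bases before a start were searched on both strands for TTCNNNGAA (the palindrome bound by STAT factors), GAAANNGAA (an interferon response element core), TTGCNNAA (a C/EBP core), TATAAA (the TATA box) and the NF-kB consensus. Only the C/EBP core was found, once before the outer of 2 RefSeq starts of *C1s1* and once before *C3*, which are shown as the members with a KO interval above 0 in all 4 pairs that have an entry. Capitals mark the match, 242 and 45 bases before the start at its first base.
C1s1, chr6:124542360-124542609, minus strand: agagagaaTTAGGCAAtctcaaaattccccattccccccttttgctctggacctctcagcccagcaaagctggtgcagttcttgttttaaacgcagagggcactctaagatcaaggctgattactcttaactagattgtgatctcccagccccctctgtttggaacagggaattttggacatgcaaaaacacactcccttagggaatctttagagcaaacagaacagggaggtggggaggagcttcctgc
C3, chr17:57228137-57228386, minus strand: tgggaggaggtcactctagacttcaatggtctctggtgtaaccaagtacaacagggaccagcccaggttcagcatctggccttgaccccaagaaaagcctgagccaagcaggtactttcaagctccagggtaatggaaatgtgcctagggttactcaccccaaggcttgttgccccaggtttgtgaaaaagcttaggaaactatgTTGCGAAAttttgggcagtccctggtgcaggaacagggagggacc
Of 32841 promoters of that length, 9.57% hold the C/EBP core, 7.02% the STAT palindrome, 7.13% the interferon element core, 12.4% TATAAA and 3.90% the NF-kB consensus. A match is a description of letters, not of binding.

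Genes with the most similar pattern over the 8 libraries were found by Pearson's r of log2 CPM among 12368 genes averaging 50 counts or more. With 8 points that share 4 tissues and diets, high values are common, and no test is given. *C1ra* was nearest to *Cd248* (r = 0.96), *Scara5* (0.95) and *C1s1* (0.95), *C1s1* to *Ntrk2* (0.96), *C1ra* (0.95) and *Meis2* (0.94), and *Serping1* to *Htra3* (0.97), *Thbs3* (0.97) and *Procr* (0.97). *C4b* was nearest to *Pacs2* (0.99), *Cd84* (0.99) and *Thrb* (0.98), and *C3* to *Dna2* (0.99), *Stx11* (0.98) and *Fam107a* (0.98). The low members were nearest to *Pfkm*, *Tbc1d12* and *Klhl13* (*C4a*, 0.93 to 0.98), *Igkv16-104*, *Dqx1* and *Tmem106b* (*C2*, 0.94 to 0.95), *Dync1li1*, *Prkra* and *Ptp4a1* (*Cfb*, 0.97 to 0.98), and *Stxbp3*, *P4ha1* and *Adgre5* (*Cfd*, 0.98 to 0.99). *Cd248* and *Scara5* are known as fibroblast genes, while no cell type is assigned here to the other nearest genes. Within the members, r was 0.95 for *C1ra* with *C1s1*, 0.89 for *C1s1* with *Serping1* and 0.81 for *C4a* with *C4b*.

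The rest of the system was read from a list of 48 other complement genes, of which 32 averaged 10 counts or more over the libraries and 6 had no count. In edgeR's quasi-likelihood fit of genotype with tissue and diet as a block, 1 of 16971 genes (0.00589%) was called between genotypes at an adjusted p of 0.05, and 279 had an unadjusted p below that value. None of the 32 was called, by edgeR or by DESeq2, and 4 had an unadjusted p below 0.05. These were *C7*, a membrane attack component, at log2 3.78 ± 1.32 (SE), *C1qa* at -0.88 ± 0.34, *C1qb* at -0.83 ± 0.34 and *Itgax*, a subunit of complement receptor 4, at -0.55 ± 0.24, each with an adjusted p of 1.0. Within the pairs *C1qa* was at log2 -0.71 in HFD SAT, -1.35 in chow SAT, 0.24 in VAT and -1.68 in muscle. For *C1qb* these were -0.55, -1.32, 0.20 and -1.65. Both thus went the other way in VAT, whose direction rests on its label. The median log2 ratio of the list was -0.03, against 0.02 over all genes.

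Between fat depots the list differed far more. For VAT over chow SAT, 11 of the 32 were called higher and 2 lower, beside 3.31% of all genes called higher and 1.74% lower, and the list's median log2 ratio was 1.73 against -0.08 over all genes. The 3 chains of C1q, which recognises the target, rose together. *C1qa* had 2020 and 797 counts in chow SAT and 8220 and 14704 in VAT, a log2 ratio of 3.79 ± 0.52 (adjusted p = 0.011), and *C1qb* rose by 3.72 ± 0.52 (adjusted p = 0.011) and *C1qc* by 3.88 ± 0.57 (adjusted p = 0.013). The C1q levels thus rose in VAT where *C4b* was highest, while the members *C1ra* and *C1s1* differed there by at most 2.02-fold in either genotype.

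Other recognition and amplification genes rose in VAT as well. *Fcna*, ficolin A of the lectin pathway, had 95 and 59 counts in chow SAT and 4318 and 5858 in VAT (6.62 ± 0.66, adjusted p = 0.0049). *Cfp*, properdin, which stabilises the alternative convertase, rose by 3.21 ± 0.40 (adjusted p = 0.0086). Among receptors, *C3ar1* rose by 4.76 ± 0.47 (adjusted p = 0.0049), *C5ar1* by 4.65 ± 0.69 (0.013), *C5ar2* by 5.06 ± 0.72 (0.015), *Itgam*, a subunit of complement receptor 3, by 3.21 ± 0.39 (0.0074) and *Cd93*, a C1q-binding surface protein, by 3.73 ± 0.46 (0.0079), all adjusted p-values of the same edgeR fit. *Cr2*, complement receptor 2 of B cells, fell by 5.04 ± 0.38 on the log2 scale (adjusted p = 0.0044) and *Cd55*, decay-accelerating factor, fell by 1.58 ± 0.30 (adjusted p = 0.026).

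Leaving out 1 library at a time, which assumes that a lone library varies like the others, ended some of these calls. Without the VAT library labelled KO the adjusted p reached 0.062 for *C1qc*, 0.053 for *Itgam* and 0.075 for *C5ar1*, without 1 of the VAT libraries 0.12 for *C5ar2*, and over all such fits 0.29 for *Cd55*. The other 8 calls held in each of them. Macrophage markers summed to 1769 and 753 CPM in chow SAT and to 12543 and 11946 in VAT, and B cell markers to 4190 and 2533 and to 653 and 1061. Their part in the complement changes was not tested. Of the genes not called, *Itgb2*, the shared chain of receptors 3 and 4, gave 0.55 ± 0.37, *Cr1l*, which protects cells from C3 deposition, -0.17 ± 0.29, and *Colec12*, a scavenger receptor of collectin type, 1.98 ± 0.68. *Hc*, which encodes C5, gave -3.47 ± 0.97 (adjusted p = 0.088) and *C6* 5.40 ± 1.09 (adjusted p = 0.051).

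In muscle over chow SAT 3 of the 32 rose and none fell, beside 1.11% and 0.147% of all genes. *Fcnb*, ficolin B of neutrophils, had 2738 and 2745 counts in muscle and 12 and 0 in chow SAT (9.25 ± 1.14, adjusted p = 0.022), *Itgam* rose by 3.37 ± 0.39 (adjusted p = 0.012) and *Cd93* by 2.60 ± 0.44 (adjusted p = 0.038). *Fcnb* held without any 1 library, while the adjusted p reached 0.074 for *Itgam* without the muscle KO library and 0.25 for *Cd93* over all such fits. Neutrophil markers were at 18962 and 22543 CPM in muscle, where *C3* was highest, and endothelial markers at 1675 and 1905 CPM. The part of either list was not tested.

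Muscle over VAT, which shares its libraries with both comparisons above, had 2 of the 32 higher and 8 lower, beside 0.884% and 1.05% of all genes. *Fcnb* (10.05 ± 1.23, adjusted p = 0.013) and *Cr2* (3.98 ± 0.37, adjusted p = 0.0050) were higher. Among the lower were *C1qa* (-4.61 ± 0.55), *C1qb* (-4.71 ± 0.55), *C1qc* (-4.64 ± 0.60), *Fcna* (-7.87 ± 0.71), *Cfp* (-2.62 ± 0.39), *C3ar1* (-5.41 ± 0.49) and *C6*, with adjusted p-values of 0.0050 to 0.033. *C6*, a membrane attack component, had 491 counts in VAT and 0 in muscle, at least 220-fold lower with the floor of 3 counts over the group. *Fcna*, *C3ar1* and *Cr2* held without any 1 library. The adjusted p of the other calls passed 0.05 without at least 1 VAT or muscle library, reaching 0.076 to 0.094 for the C1q chains, 0.10 for *Fcnb*, 0.25 for *Cfp* and 0.31 for *C6*.

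For HFD over chow in SAT none of 16971 genes was called (0%), with 1354 at an unadjusted p below 0.05 and 260 called by DESeq2. Of the 32, none was called by edgeR, 3 by DESeq2, and 11 had an unadjusted p below 0.05, among them *Fcna* (-5.31 ± 0.95), *Clu*, the fluid-phase inhibitor clusterin (-1.94 ± 0.45), *C1qa* (-1.21 ± 0.48) and *C1qb* (-1.53 ± 0.48). Without the KO library of chow SAT, 360 genes and 2 of the 32 were called.

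**Figure D4:**
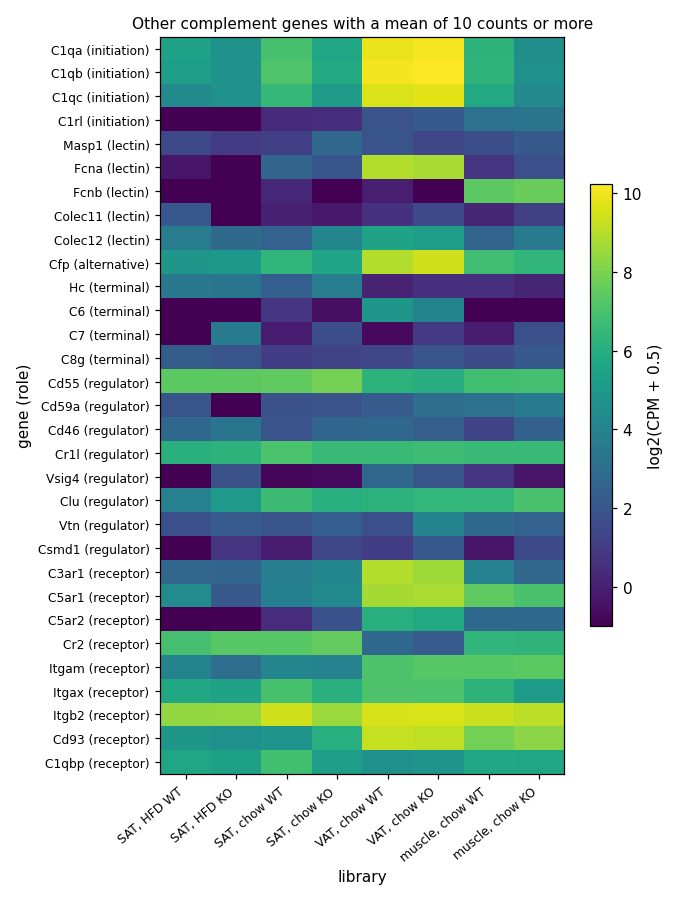
Level (colour, log2(CPM + 0.5)) of other complement genes that were tested (y axis, with role) in each of the 8 libraries (x axis). The C1q chains, *Fcna*, *Cfp* and *C3ar1* are brightest in both VAT libraries, and *Fcnb* in both muscle libraries.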

How the data were processed

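RNA was measured in 8 libraries of sorted mG+ cells. The authors deposited whole-number read counts for each Ensembl gene, with no normalization. The submitters' processing notes name HISAT2 2.0.5 and GRCm38 (mm10). The counting program, annotation release and strand setting are not given in the sources used here. The labels give column-based RNA isolation, the paper Trizol. All value columns could be tied to a sample, and coordinates of all 9 members equal those of GENCODE M21.

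From these counts, libraries were scaled by TMM (edgeR 4.0.16) over the 16971 genes averaging 10 counts or more, and levels were given as CPM. Within a pair, ratios carry a prior count of 0.5, with Clopper-Pearson intervals (scipy 1.17.1) for counting error only; 1 library per group allows no test. Between tissues, diets and genotypes, the edgeR quasi-likelihood test (Benjamini-Hochberg, 0.05) was read for complement genes other than the members. With 2 libraries per tissue and diet, 1 of each genotype, no group has a true replicate. The p-values of this test rest on how far libraries depart from a genotype ratio shared by the pairs, pooled over all groups. They do not measure a spread between mice of a tissue. Both steps were tested on simulated data. The members, lists and tests were chosen with earlier results of these data known. Named genes were the members, Tert, those called in a contrast, up to 3 per role with the highest mean CPM, the 3 most similar genes per member, and close copies or overlapping genes; C7, C1qa, C1qb, Itgax and Clu as examples with a low unadjusted p were chosen after their values were seen. DESeq2 1.42.0 and other scalings and filters were alternatives. Values of 1 called gene of the list are not reported here.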

Additional observations from a re-analysis of the deposited data

Results flagged for a closer look

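*C2* lay past 2-fold in opposite directions in 2 pairs, with whole counting intervals on either side. It was at least 5.07-fold lower in KO in HFD SAT, from 8 counts in WT and none in KO, below the mean of 10 counts set for the calls, with 3 counts as the floor; the 95% counting interval reached up to log2 -1.70. In muscle it was 9.25-fold higher in KO, from 5 and 43 counts. Each side is 1 library against 1 library, and the difference between the pairs was not tested.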

How the results depend on the processing

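The count of members higher past 2-fold in chow SAT rested on the scaling. It was 1, and became 2 with DESeq2 size factors, 3 with the upper quartile, 4 with library totals and 3 where the ratio itself had to pass 2-fold. In VAT that last rule gave 1 in place of 0. The share of all genes past 2-fold was computed only for the main setting. The other counts thus have no background beside them, and nothing is read from them. Library totals raised every KO ratio by log2 0.23 in chow SAT and 0.17 in muscle, the upper quartile by 0.19 in chow SAT and DESeq2 size factors by 0.11 there. The number of members higher in KO in every pair was 3 to 6 over the other scalings and left-out pairs, against 4, again without a share of all genes for each. Of the members' single ratios, 156 of 175 stayed within their counting interval and none with an interval off 0 changed sign.

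Counts of genes called by edgeR moved more. Between genotypes 1 gene became 41 with all genes of at least 1 count, 0 without the block, 19 with DESeq2, and 1 to 2 with a pair left out. HFD over chow in SAT went from 0 to 289 with all genes and 260 with DESeq2, and ranged from 0 to 360 with a library left out; for the other complement genes these were 5, 3 and 0 to 2. VAT over chow SAT went from 857 to 2116 with all genes and 2305 with DESeq2 and ranged from 101 to 3511, with 8 to 15 complement genes. Muscle over chow SAT went from 213 to 971, to 1058 with DESeq2 and to 339 without genotype, and ranged from 37 to 1814; complement genes were 5 with all genes, 7 with DESeq2 and 1 to 6. Muscle over VAT went from 328 to 1166, to 1258 with DESeq2 and to 542 without genotype, and ranged from 42 to 1228, with 4 to 13 complement genes. The cause was not tested, beyond the fewer samples of a left-out library. No paired analysis was possible by replicate number because each group has 1 library; the pairing by tissue and diet was the block of the genotype fit, with 1 gene called with it and 0 without.

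*C2*, *Cfb*, *Cfd* and *C4a* rest on 117 to 345 counts over all libraries, so their intervals are wide. Intervals cover counting error only, and no value within a pair has a replicate check.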
